A study of Caenorhabditis elegans with 4 samples.

Results

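The 10 genes described here regulate the molting cycle and the passage from larva to adult in Caenorhabditis elegans. They were chosen by name, as the rows of the count table whose WormBase symbol is nhr-23, nhr-25, grh-1, myrf-1, blmp-1, bed-3, lin-42, lin-28, hbl-1 or lin-29. All 10 were found among the 46643 rows of the table, and all 10 passed the filter on low counts and were tested. RNA came from whole wild-type (N2) animals that were placed as synchronised L1 larvae on bacteria-seeded plates at 25 °C and collected at adult day 1. There were 2 control libraries from plates with M9 buffer, the vehicle (0 mM), and 2 libraries from plates with 2.5 mM ketamine, an anaesthetic. The paper reports delayed development under ketamine, with larvae and young adults still present when all control animals were egg-laying adults. The part of such a delay in the values below was not tested. Nothing in the labels says whether the libraries of a group came from separate cultures, so p-values measure the spread between these libraries only. The number of libraries was 4 in all, and they summed to between 29192110 and 43419202 counts.

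C. elegans sheds its cuticle at the end of each larval stage, and a wave of epidermal gene expression runs once in every molt. The transcription factors NHR-23, NHR-25, GRH-1, MYRF-1, BLMP-1 and BED-3 act in this oscillation, and LIN-42, the worm relative of the Period proteins, sets its pace. The heterochronic pathway decides which larval stage a cell behaves as: LIN-28 and HBL-1 hold early programmes in place until microRNAs shut them down, and LIN-29 then drives the switch of the epidermis to its adult state. In an adult the larval molts have ended, while germ cells and embryos inside the animal also use several of these genes. In RNA from whole animals, fewer cells of a type and less RNA per cell cannot be told apart.

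None of the 10 regulators passed the test between ketamine and control. edgeR's quasi-likelihood test called 0 of 10 (adjusted p-value below 0.05, fold of 2 or more), where 0.095% of the 15793 genes tested were called, all of them higher. DESeq2 also called 0 of 10, against 0.779% of all genes. Without adjustment, at a p-value below 0.05 and a fold of 2 or more, 1 of 10 was higher in edgeR, and this was bed-3, against 2.05% of all genes higher and 1.63% lower. At any fold size bed-3 was also the only one of the 10 with an unadjusted p-value under 0.05, against 6.09% of all genes. DESeq2 likewise gave 1 of 10 at that p-value and fold, against 3.85% of all genes in either direction. In 4 of the 10 genes, namely bed-3, lin-42, myrf-1 and lin-28, both ketamine libraries lay above both controls, as they did in 23.1% of all genes. In 0 of 10 did both lie below, against 20.6% of all genes, and in the remaining 6 the groups overlapped. Their log2 fold changes had a median of 0.23, from -0.16 for lin-29 to 1.42 for lin-42, beside -0.01 over all genes tested. 7 of the 10 values were above 0, against 49.5% over all genes. With 2 libraries against 2, an exact permutation test of a single gene cannot give a two-sided p below 0.33.

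**Figure D1:**
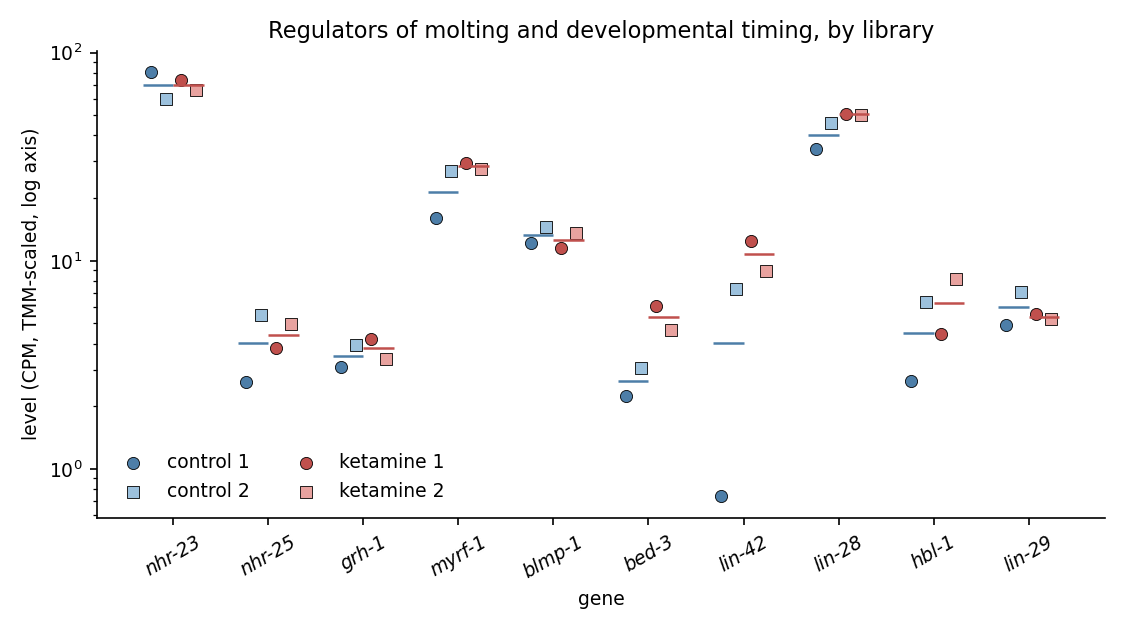
Level of each regulator in CPM (counts scaled to library size with TMM factors, log axis) in the 4 libraries, with short lines at the mean of the 2 controls (blue) and of the 2 ketamine libraries (red). The ketamine points lie above both controls for myrf-1, bed-3, lin-42 and lin-28, and the control 1 point of lin-42, at 0.738 CPM, lies far below its other points.

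The libraries were not equally alike. Across the genes tested, the Pearson correlation of log2 levels was 0.988 for the ketamine pair and 0.962 for the control pair. Control 2 reached 0.978 and 0.980 against the ketamine pair, and control 1 only 0.951 and 0.949. Control 1 thus stood apart from the other 3 libraries, and the regulators' values without it are given beside those from all 4. Values of a pair are always given for library 1 first and library 2 second. Markers of epidermis, neurons, body muscle, intestine, oocytes and sperm had counts in every library wherever the gene was matched, as whole adult animals should have. The summed level of 6 epidermal markers was 178 CPM in control 1 and between 242 and 248 CPM in the other 3 libraries. Among these markers, che-14 and elt-1 were not lowest in control 1. The intestine sum was also lowest in control 1, at 296 CPM against 674 in control 2 and 627 and 607 under ketamine. Muscle instead stood apart in control 2, at 3616 CPM against 2004 in control 1 and 2219 and 2140 under ketamine. Neuron markers summed to 318 and 290 CPM in the controls and 304 and 301 CPM under ketamine. The summed level of 8 oocyte markers was 8330 and 9920 CPM in the controls and 12659 and 12261 CPM under ketamine, and that of 10 sperm markers was 45.9 and 38.6 CPM in the controls and 33.1 and 25.2 CPM under ketamine. Of 10 genes first switched on in the early embryo, 8 had counts in all 4 libraries, and their sum lay between 6.20 and 8.38 CPM, without separating the groups. edgeR called 0 genes of the marker lists. Their log2 fold changes ran from -0.16 for elt-1 to 1.48 for dpy-7 in epidermis, from -0.38 for unc-13 to 0.22 for egl-3 in neurons, from -0.47 for unc-89 to -0.34 for unc-54 in muscle and from -0.13 for pept-1 to 0.45 for act-5 in intestine. In the germ line and embryo they ran from -1.45 for peel-1 to 0.25 for spe-11 in sperm, from 0.14 for egg-1 to 0.88 for cpg-1 in oocytes and from -0.78 for ceh-51 to 0.82 for sdz-38 in the embryo. The yolk genes ran from -1.18 for vit-1 to 0.39 for vit-6, and vit-1, vit-3 (-1.03) and peel-1 passed as lower without adjustment in edgeR. The part of these differences in the values of the 10 regulators was not tested.

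Among the nuclear hormone receptors, nhr-23 (C01H6.5, chromosome I, 7214745 to 7221188) encodes a relative of the vertebrate ROR receptors that is needed at every larval molt. The control pair stood at 80.8 and 59.7 CPM, the ketamine pair at 73.8 and 66.4 CPM. Both ketamine values lay between the controls. Means (± SD, n = 2) were 70.2 ± 14.9 CPM for controls against 70.1 ± 5.21 CPM for ketamine, giving a log2 fold change of -0.003 (95% interval -0.53 to 0.53, edgeR adjusted p = 0.996). It was 0.21 without control 1 and -0.20 without control 2. The interval excludes a 2-fold change in either direction, and nhr-23 was the regulator with the most counts in control 1, at 3722. It was also the only one of the 10 with its lowest level in control 2 and its highest in control 1.

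nhr-25 (F11C1.6, chromosome X, 13008493 to 13013953) encodes a receptor of the FTZ-F1 family that acts in the epidermis, in the embryo and at molts. Control levels were 2.60 and 5.46 CPM, and ketamine levels 3.82 and 4.95 CPM. The controls spanned both ketamine values, and control 2 was 2.10-fold above control 1. The log2 fold change was 0.12 (95% interval -1.001 to 1.25, edgeR adjusted p = 0.931), with an interval that holds a 2-fold change in both directions. Without control 1 the sign turned, to -0.34.

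grh-1 (Y48G8AR.1, chromosome I, 1259489 to 1268155) encodes the worm Grainyhead factor, which in animals generally governs the epidermal barrier. It had 142 and 137 counts in the control pair against 144 and 97 in the ketamine pair, which corresponded to 3.08 and 3.92 against 4.23 and 3.36 CPM. The groups overlapped. The log2 fold change was 0.12 (95% interval -0.65 to 0.89, edgeR adjusted p = 0.902), and it was -0.07 without control 1 and -0.06 without ketamine 1. grh-1 overlaps Y48G8AL.15 on the opposite strand, with 0 shared exon bases.

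myrf-1 (F59B10.1, chromosome II, 10497364 to 10502541) encodes a membrane-bound factor that cleaves itself and enters the nucleus, and which is needed for larval molts and for the rewiring of neurons. Controls held 16.1 and 26.9 CPM of it, and ketamine libraries 29.4 and 27.6 CPM. The ketamine libraries lay above both controls, but ketamine 2 was only narrowly above control 2, and control 1 stood below the other 3. The means (± SD, n = 2) were 21.5 ± 7.67 against 28.5 ± 1.24 CPM, and the log2 fold change was 0.41 (95% interval -0.37 to 1.19, edgeR adjusted p = 0.748). It was 0.06 without control 1 and 0.83 without control 2, where the edgeR adjusted p was 0.0019 at under 2-fold.

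blmp-1 (F25D7.3, chromosome I, 10409359 to 10413846) encodes the worm Blimp-1, a zinc-finger factor that opens chromatin at genes of the molting oscillation. It gave 12.2 and 14.5 CPM without ketamine, then 11.6 and 13.7 CPM with it. These were the closest values of the 10 genes, with 1.25-fold between the highest and the lowest library. The log2 fold change was -0.08, or -0.23 without control 1. Its interval ran from -0.69 to 0.53, which leaves out a 2-fold change either way (edgeR adjusted p = 0.915).

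bed-3 (F25H8.6, chromosome IV, 9916528 to 9921969) encodes a zinc-finger protein of the BED type that is needed for molting and for cell divisions in the vulva. Its controls lay at 2.24 and 3.06 CPM, its ketamine libraries at 6.08 and 4.64 CPM. The groups did not overlap, and the lower ketamine library was 0.59 above the higher control on the log2(CPM + 0.1) scale. The fitted fold was 2.03, with a 95% interval of 1.15 to 3.59, and the edgeR p-value was 0.0244 before adjustment and 0.748 after it. In DESeq2 these were 0.0147 and 0.569. bed-3 was the only regulator of the 10 for which the log2 fold change exceeded the difference between the libraries of either condition. How many of all genes do so was not computed. With each library left out the log2 fold change ran from 0.78 without control 1 to 1.27 without control 2. As the groups did not overlap, its sign could not turn, so the kept sign adds no support. The fold change of bed-3 lay above that of 95.8% of the genes tested. bed-3 was chosen with results of these same libraries known, so its direction is not independent evidence.

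lin-42 (F47F6.1, chromosome II) is the Period-like gene, whose transcript rises and falls once per larval stage. The controls had 34 and 257 counts, or 0.738 and 7.35 CPM, and the ketamine libraries 426 and 258 counts, or 12.5 and 8.94 CPM. Control 2 was 9.96-fold above control 1, a wider gap than that between control 2 and ketamine 1. Only 65 of the genes tested (0.412%) had so large a difference between the controls on the log2(CPM + 0.1) scale. Between means (± SD, n = 2) of 4.04 ± 4.67 and 10.7 ± 2.53 CPM, the log2 fold change of 1.42 had a 95% interval from -1.15 to 3.99 (edgeR adjusted p = 0.748). It was 0.52 without control 1 and 3.86 without control 2, so that the size of this value rested on control 1. The current WBcel235 annotation spans 1233236 to 1252359 for lin-42 with 7 transcripts, while the deposited row gives a start (1239367) that lies after its end (1236540), as do 9 rows in all. The counted length was 2715 bases, against 4009 exon bases in that annotation, so the row may not cover every transcript. Counts were given per gene, and the transcripts were not told apart.

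**Figure D2:**
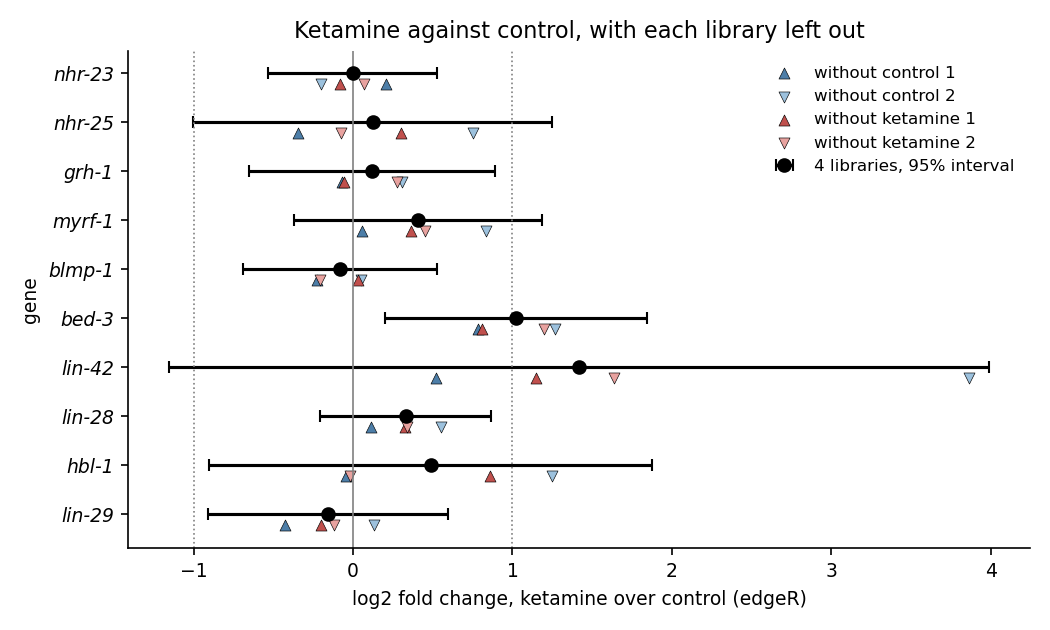
log2 fold change of ketamine over control for each regulator (edgeR), with its 95% interval from all 4 libraries (black) and the values after leaving out each library (triangles); dotted lines mark a 2-fold change. The interval of bed-3 alone leaves out 0, and the triangle of lin-42 without control 2 stands at 3.86 against 0.52 without control 1.

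In the heterochronic pathway, lin-28 (F02E9.2, chromosome I, 8407802 to 8409976) encodes an RNA-binding protein with a cold-shock domain that blocks the maturation of let-7 and keeps early larval fates. Controls measured 34.6 and 46.0 CPM, ketamine libraries 50.99 and 50.4 CPM. The ketamine libraries lay above both controls, and 92.0% of all genes tested had at least as large a difference between them. The means (± SD, n = 2) were 40.3 ± 8.03 against 50.7 ± 0.411 CPM. The fitted fold of 1.26 had a 95% interval of 0.868 to 1.82 (edgeR adjusted p = 0.748), and the log2 fold change was 0.33, with 0.11 without control 1 and 0.55 without control 2, where the edgeR adjusted p was 0.0030 at under 2-fold. lin-28 overlaps F02E9.1 on the opposite strand, with 16 shared exon bases in the annotation and 680 to 971 counts for that gene.

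hbl-1 (F13D11.2, chromosome X, 5822277 to 5826434) encodes the Hunchback-like factor that marks the second larval stage and is turned off by let-7 family microRNAs. Levels were 2.65 and 6.35 CPM for controls, 4.44 and 8.14 CPM for ketamine. The groups overlapped, and hbl-1 had the widest gap between the ketamine libraries of the 10 genes, 1.84-fold, reached by 6.46% of all genes on the log2(CPM + 0.1) scale. Its log2 fold change of 0.49 (95% interval -0.91 to 1.88, edgeR adjusted p = 0.782) went to -0.04 without control 1 and to 1.25 without control 2.

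lin-29 (W03C9.4, chromosome II, 11918339 to 11935343) encodes the zinc-finger factor that ends the larval molts. Its control counts of 227 and 248 and ketamine counts of 188 and 151 were 4.93 and 7.09 against 5.52 and 5.23 CPM. Both ketamine values lay between the controls. The log2 fold change was -0.16 (95% interval -0.91 to 0.59, edgeR adjusted p = 0.863), and it was -0.42 without control 1 and 0.13 without control 2. lin-29 overlaps hmg-12 on the opposite strand at 2 exon bases. hmg-12 had between 8895 and 15645 counts, far above lin-29, and the strand setting used for counting is not given in the sources used here.

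Of the 10 regulators, 5 had intervals that exclude a 2-fold change in either direction, namely nhr-23, grh-1, blmp-1, lin-28 and lin-29, as did 41.4% of all genes. For nhr-25, myrf-1, lin-42 and hbl-1 the interval held both 0 and a 2-fold change, and the interval of bed-3 reached from under to over 2-fold.

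The libraries of the same condition also differed from each other. In 9 of the 10 regulators, all but bed-3, the larger of the gaps between libraries of the same condition exceeded the fold change between conditions. Here the larger of 2 gaps between single libraries is set against a difference between groups. That favours the gap even without a treatment effect. The share over all genes was not computed, so this count shows nothing particular to the regulators or to bed-3. Control 2 was above control 1 in 9 of 10, all but nhr-23. Over all genes tested the median of control 2 minus control 1 was 0.006 in log2 CPM, and the share above 0 was not computed. Without regard to sign, the median gap between the controls was 0.48 on the log2(CPM + 0.1) scale, close to the 0.44 of all genes. The ketamine libraries differed by a median of 0.28, above the 0.14 of all genes. 8 of the 10 regulators had their lowest level in control 1, as had 38.5% of the genes tested. The 5 regulators grh-1, myrf-1, bed-3, lin-42 and lin-28 also had their highest level in ketamine 1, a combination found in 13.8% of all genes.

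**Figure D3:**
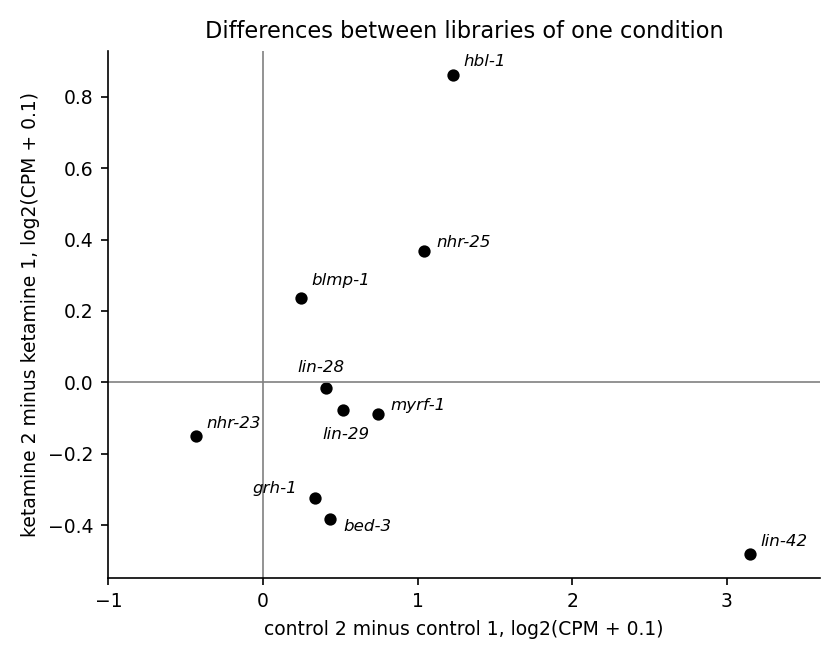
Difference between the 2 control libraries (x axis) and between the 2 ketamine libraries (y axis) for each regulator, both in log2(CPM + 0.1). lin-42 stands far to the right at 3.15 and hbl-1 at the top at 0.86, while nhr-23 alone lies left of 0.

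Leaving out 1 library of a group assumes that the lone library varies like the other group. Without control 1, 0 of 10 regulators were called by edgeR, beside 0.937% of all genes, and their median log2 fold change was 0.01. Without control 2, when control 1 was the only control, 3 of 10 were called higher, beside 15.2% of all genes in either direction. These were lin-42 (adjusted p = 0.000235), bed-3 (adjusted p = 0.0138) and hbl-1 (adjusted p = 0.0448, all edgeR), and the median was 0.65. Without ketamine 1 or ketamine 2, 0 of 10 were called, beside 0.146% and 0.133% of all genes.

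Levels between genes were compared per length, in FPKM as deposited (fragments scaled to gene length and library size). lin-28 was highest, with a mean of 33.6 FPKM over the 4 libraries (25.6 to 37.7), followed by nhr-23 at 26.9 FPKM (22.8 to 31.0). Their ranges overlapped, and nhr-23 was above lin-28 in control 1 alone. myrf-1 at 7.53 FPKM (4.85 to 8.86) and blmp-1 at 5.22 FPKM (4.66 to 5.83) formed a middle pair, which also overlapped but lay below both leading genes in every library. The other 6 genes averaged 2.69 FPKM for lin-42, 2.44 for lin-29, 2.13 for grh-1, 1.76 for hbl-1, 1.76 for bed-3 and 1.62 for nhr-25, and each of them overlapped its neighbour in the order. lin-42 moved from last of the 10 in control 1, at 0.269 FPKM, to the fifth place in ketamine 1, at 4.56 FPKM. Among all genes tested, 73.5% had a lower mean FPKM than lin-28 and 26.2% a lower one than nhr-25. The FPKM depend on the counted length, which was shorter by more than 2 bases than the exons of the current annotation for grh-1 (1693 against 3039 bases), lin-42 (2715 against 4009), blmp-1 (2454 against 3438), hbl-1 (3029 against 4478), myrf-1 (3277 against 3654) and lin-28 (1337 against 1453).

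**Figure D4:**
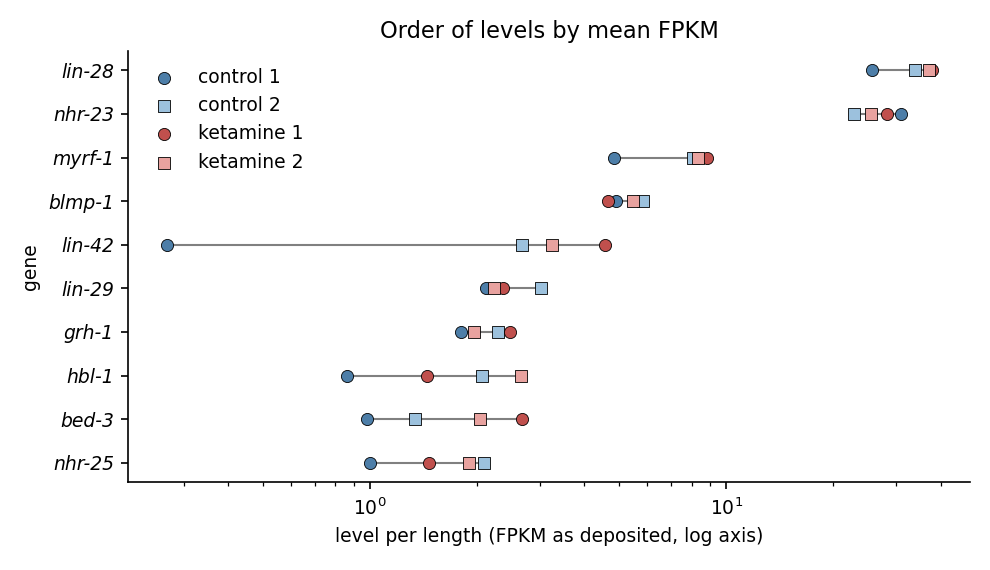
FPKM of each regulator in the 4 libraries (log axis), ordered by the mean, with a grey line from the lowest to the highest library. lin-28 and nhr-23 lie at 22.8 FPKM or more in every library, and the other genes reach at most 8.86 FPKM.

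The microRNAs of the pathway were visible only as hairpin rows, since libraries of polyadenylated RNA do not capture mature microRNAs. Of 6 such rows, matched through RefSeq locus tags, lin-4, mir-48, mir-84, mir-241 and mir-237 had 0 counts in all 4 libraries. The row of let-7 (C05G5.6, chromosome X, 14744173 to 14744271), the microRNA that LIN-28 restrains and that represses hbl-1 and lin-41, was at 0 and 1 counts in controls and at 17 and 7 counts with ketamine. Both ketamine libraries were above both controls, although these few reads were under the filter and let-7 was not in the main test. The summed counts of 24 against 1 gave a ratio of 30.9 after scaling, with an exact 95% interval from 5.04 to 1272 that covers counting error only. Without the filter edgeR gave an adjusted p of 0.384, and DESeq2 gave 0.491, so this difference did not pass.

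Other genes of the 2 pathways were taken from lists drawn up by name. Of 11 further molting regulators, among them the kinase kin-20 and the receptor nhr-85, 0 were called in edgeR or DESeq2, 0 passed at the same fold without adjustment, and the median of their log2 fold changes was -0.01. The values ran from -0.47 for lrp-1, an endocytic receptor needed to shed the cuticle, to 0.78 for acn-1, a protease-like protein of the molting epidermis. Of 16 further heterochronic genes, among them lin-14, lin-41, daf-12 and mab-10, 0 were called in either tool and 0 passed without adjustment. Their median was 0.07, from -0.16 for dre-1, an F-box protein, to 0.44 for mab-10, the cofactor of LIN-29. Of these 16, 0 lay above both controls in each ketamine library and 1, dre-1, lay below. Of the 11 further molting regulators, 2 lay above in this way and 4 lay below. The background of 23.1% higher and 20.6% lower over all genes applies here as well.

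Effectors of the molt, which the regulators switch on in larval epidermis, likewise passed no adjusted test. Of 18 such genes 0 were called by edgeR or DESeq2, and without adjustment 2 passed higher in edgeR and 4 in DESeq2. Over all genes tested the unadjusted shares were 2.05% higher in edgeR and 3.85% in either direction in DESeq2. The 18 log2 fold changes had a median of 0.39, which was -0.01 when control 1 was left out and 0.96 when control 2 was. Both ketamine libraries lay above both controls in 7 of the 18 and below them in 2, beside 23.1% and 20.6% of all genes. mlt-9, a gene named for its molting defect, was at 77 and 69 counts in controls and at 215 and 92 with ketamine (log2 fold change 1.39, edgeR adjusted p = 0.748). qua-1, a hedgehog-related gene required for molting, was at 186 and 205 counts in controls and at 488 and 205 with ketamine (log2 fold change 1.12, edgeR adjusted p = 0.748). In both genes ketamine 1 stood far above the other 3 libraries. The others that passed in DESeq2 alone were mlt-11 (DESeq2 log2 fold change 1.23, adjusted p = 0.761) and lpr-3 (DESeq2 log2 fold change 1.28, adjusted p = 0.880). The lowest value was -0.42, for mlt-7, a peroxidase of the cuticle.

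Of 5 collagen and cuticle genes that LIN-29 turns on at the last molt, 0 were called by edgeR or DESeq2, and 0 in edgeR and 1 in DESeq2, bli-1, passed without adjustment. Over all genes the shares were 0.095% and 0.779% with adjustment, and 2.05% higher and 3.85% in either direction without it. The median of the 5 log2 fold changes was 1.02, but 0.20 without ketamine 1, 0.71 without control 1, 1.37 without control 2 and 1.53 without ketamine 2. The values ran from -0.24 for col-19, the classical marker of the adult epidermis, to 1.94 for bli-1, a collagen of the adult cuticle's struts. col-19 counts were 14261 and 54418 in controls but 28914 and 20938 with ketamine, so that the treated libraries lay between the controls, also in CPM. Among 2 collagens of larval stages 0 were called, while col-17 passed without adjustment in both tools. col-10 was at 80 and 482 counts in controls and at 1090 and 424 with ketamine (log2 fold change 1.60), and col-17 at 107 and 215 against 759 and 262 (log2 fold change 1.90, edgeR adjusted p = 0.748). The lowest level in control 1 and the highest in ketamine 1, the pattern of lin-42, was shared by both larval collagens, by 4 of the 5 LIN-29 targets and by 8 of the 18 effectors, but by 1 of 11 further molting regulators and 1 of 16 further heterochronic genes. Over all genes tested the share was 13.8%.

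**Figure D5:**
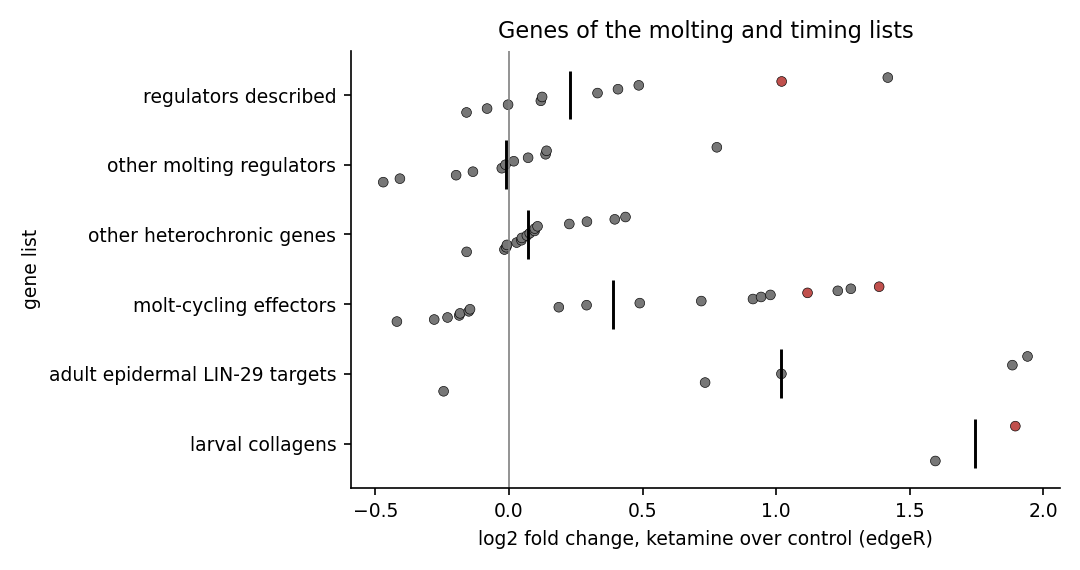
log2 fold change of ketamine over control (edgeR) for every tested gene of the 10 regulators and of the other lists, with a vertical line at the median of each list; red points passed p below 0.05 without adjustment with a fold of 2 or more. The further molting and heterochronic regulators cluster near 0, with medians of -0.01 and 0.07, while the 18 effectors have a median of 0.39 and the 2 larval collagens lie at 1.60 and 1.90.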

How the data were processed

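The authors aligned 150-bp paired-end reads from stranded mRNA libraries to WBcel235 with HISAT2 2.0.5, assembled them with StringTie 1.3.3b and counted them with featureCounts 1.5.0-p3, and the table they deposited holds unnormalized counts for each gene. A second deposited table gives FPKM, where each count is scaled to the counted gene length and to the size of its library. Columns named WT1 and WT2 were matched to the controls by number, and all per-sample columns were used. Of 46643 rows, 46183 were matched to WormBase genes through the transcripts of the WBcel235 annotation. Symbols came from RefSeq locus tags (WBcel235) and then from a table of WormBase names.

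The fit took genes that reached 10 counts in 2 or more libraries and used edgeR 4.0.16 (TMM, quasi-likelihood test) in R 4.3.3, with Benjamini-Hochberg adjustment over all genes tested. Calls needed an adjusted p-value below 0.05 together with a change of 2-fold or more. The 95% intervals come from the fitted standard error and the degrees of freedom of the same test. Alternatives used DESeq2 1.42.0, limma 3.58.1 on log2(FPKM + 1) and log2(FPKM + 0.1), other scaling factors and filters, a replicate block and each library left out. The fits were tested on simulated counts. There the libraries varied less than in these data and none stood apart, so the test does not cover a library like control 1. The members and lists were chosen with earlier results of these data known. All 10 members are named. Other listed genes are named where they passed the unadjusted threshold with separate groups (in edgeR, or in DESeq2 where its calls are counted) or held the highest or lowest fold change of a list, and some example members are named for their role. col-10 is also named as the other larval collagen. The number of libraries limits the precision. The libraries of a group differed by far more than counting error, with a chi-square per degree of freedom of 283 between the controls and 8.77 between the ketamine libraries.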

Additional observations from a re-analysis of the deposited data

How the results depend on the processing

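No regulator passed the adjusted threshold under another scaling, filter or tool. Of all values and counts recomputed, 244 kept their direction and side of the threshold or stayed within their limits, 23 moved, 14 changed sign and 3 came past the threshold. These limits were wide. For the median of the regulators the limit was 0.44, so that 0.01 without control 1 and 0.65 without control 2 were both taken as kept, beside 0.23. Many of the kept counts were 0 in both fits. Over all genes, 15 were higher and 0 lower in the fit reported. DESeq2 gave 104 higher and 19 lower, no filter on low counts 67 and 6, limma on log2(FPKM + 1) 24 higher, and the unadjusted threshold 323 and 258. Leaving out each library gave 21 to 1725 higher and 0 to 678 lower, the most without control 2, and 102 higher and 46 lower without control 1. Upper-quartile scaling shifted the median of all genes by -0.10.

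Unadjusted, 1 regulator was higher, and with each library left out 0 to 3 were. The unadjusted counts were 2 for the effectors and 1 for the larval collagens. With each library left out, the calls ranged from 0 to 1 for the further molting regulators, 0 to 2 for the further heterochronic genes, 0 to 9 for the effectors, 0 to 3 for the LIN-29 targets, where 1 was called without control 1, and 0 to 2 for the larval collagens. The highest of each came without control 2, where 15.2% of all genes were called in either direction.

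The log2 fold change with each library left out ranged from -0.20 to 0.21 for nhr-23, -0.34 to 0.75 for nhr-25, -0.070 to 0.31 for grh-1, -0.23 to 0.051 for blmp-1, -0.42 to 0.13 for lin-29, -0.044 to 1.25 for hbl-1, 0.06 to 0.83 for myrf-1, 0.11 to 0.55 for lin-28, 0.78 to 1.27 for bed-3 and 0.52 to 3.86 for lin-42. nhr-23 was at 0.011 under limma on log2(FPKM + 1) and at 0.012 on log2(FPKM + 0.1), and bed-3 at 0.63, under 2-fold, and 0.96. The cause of these changes was not tested.

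The labels do not say whether same-numbered libraries belong together. Their deviations had a correlation of 0.08 over the genes tested. This cannot decide whether they were paired, because control 1 stood apart from the other libraries. A fit with the replicate number as a block called 34 genes higher and 0 of the regulators, and gave 0.011 for nhr-23 and 2.09 for lin-42, against 1.42 without the block. With 2 libraries a group, the spread between the controls limits what can be shown for nhr-25, hbl-1 and lin-42. For hbl-1 the spread between the ketamine libraries does so as well, with an SD of 2.62 CPM in either group.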
